A study of Mus musculus with 6 samples.

Results

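The immediate early and cAMP-responsive genes described here were the 3 NR4A receptor genes Nr4a1, Nr4a2 and Nr4a3, the AP-1 genes Fos, Fosb, Jun and Junb, the zinc finger gene Egr1, the cAMP response modulator Crem and the clock gene Per1. They were taken by symbol, through their Entrez Gene IDs, with earlier results of these data already known. All 10 were found among the 20007 gene identifiers of the count files, and all 10 were among the 15272 genes with enough counts to be tested. RNA sequencing had been done on 6 libraries of KM mice, 2 in each of 3 groups, and the series set out to compare induced cells with Sertoli cells over the whole transcriptome. CiSCs came from passaged embryonic fibroblasts, labelled 13.5 days post coitum, that were turned towards a Sertoli-like state with small-molecule compounds whose names are not in the labels. MSCs were Sertoli cells prepared from testes at postnatal day 60 and cultured on dishes. MEFs were embryonic fibroblasts, also labelled 13.5 days post coitum, although the growth protocol allows an earlier day as well. No group is described as passaged fibroblasts without the compounds, so effects of passaging and of the compounds cannot be told apart, and MSCs differed from MEFs in age and tissue as well as in cell type.

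Immediate early genes are transcribed within minutes of a stimulus, without new protein synthesis, from promoters that bind factors such as SRF and CREB that are already in the cell. Cyclic AMP activates protein kinase A, which phosphorylates CREB on cAMP response elements (CREs), and many of the products are themselves transcription factors or inhibitors that end the response. In Sertoli cells this route carries the signal of follicle-stimulating hormone, and Crem, Fos, Junb and Nr4a genes are known responders to cAMP in endocrine tissues. The transcripts are short-lived, and their levels are known to react to serum, medium change and handling of cells.

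Library totals lay between 19294671 and 20418587 counts, which puts a single read at 0.0490 to 0.0518 CPM, the count scaled to a library of 1e+06, before any other scaling. Levels below are CPM on library sizes scaled by the trimmed mean of M values, given for libraries 1 and 2 of a group in turn or as mean ± SD (n = 2 libraries), and each log2 fold change is followed by ± its standard error. A difference is said to pass where its p from the quasi-likelihood F test of edgeR, adjusted by Benjamini and Hochberg's method over all tested genes, was under 0.05. Whether both libraries of a group had cultures or animals of their own is not in the labels, so the spread behind these p-values may be technical. In bulk RNA, fewer cells of a type and less RNA per cell cannot be told apart. The summed level of 12 Sertoli cell markers was 4853 and 4123 CPM in CiSCs, 6106 and 9013 CPM in MSCs, and 194 and 227 CPM in MEFs. Clu, a secreted chaperone gene, made up most of it outside MEFs. The other 11 markers summed to 119 and 103 CPM in CiSCs, 1255 and 1483 CPM in MSCs, and 188 and 221 CPM in MEFs. CiSCs were lowest by that sum, but their place below MEFs rests on the marker Trf. Trf had 2.96 and 3.04 CPM in CiSCs and 99.9 and 123 CPM in MEFs. Wt1 went the other way, averaging 21.7 CPM in CiSCs and 1.36 CPM in MEFs. Of the 10 tested Sertoli cell markers, 3 were higher and 1 lower in CiSCs than in MEFs. Those counts were not far from the shares of all tested genes, 19.6% higher and 21.3% lower. In MSCs 9 of these markers were higher and 0 lower than in MEFs, against 22.5% and 20.0% of all tested genes. In CiSCs 0 were higher and 9 lower than in MSCs, against 17.7% and 25.1%. Among the markers Gata4 averaged 0.0945 CPM in CiSCs, 252 CPM in MSCs and 0.154 CPM in MEFs, and Fshr had 0 reads in CiSCs, 8 reads in MSCs and 0 reads in MEFs, where 0 reads over a group allow up to 0.0709 CPM in CiSCs and 0.0769 CPM in MEFs. Dmrt1 also had 0 reads in MEFs. The summed level of 12 macrophage markers was 34.6 and 50.1 CPM in the CiSC libraries, 1405 and 1326 CPM in the MSC libraries, and 11904 and 19397 CPM in the MEF libraries, with no marker at 0 reads in any group. The 10 fibroblast markers summed to 28646 and 28686 CPM in CiSCs, 38430.5 and 41239 CPM in MSCs, and 23750 and 25152 CPM in MEFs, most of it from the collagen genes Col1a1, Col1a2 and Col3a1. Of these 10 markers 4 were higher and 2 lower in CiSCs than in MEFs, 3 higher and 4 lower in MSCs than in MEFs, and 6 higher and 2 lower in CiSCs than in MSCs. These counts are to be read beside the same shares, and the 2 lower than in MEFs lay near 21.3%. The 7 Leydig cell markers summed to 3.72 and 2.57 CPM in CiSCs, 1360 and 1393 CPM in MSCs, and 2.43 and 2.39 CPM in MEFs. The 6 endothelial markers summed to 21.5 and 25.5 CPM in CiSCs, 91.8 and 95.3 CPM in MSCs, and 180 and 93.6 CPM in MEFs. For 4 peritubular myoid markers the sums were 1251 and 1143 in CiSCs, 2607 and 2464 in MSCs, and 2573 and 2163 CPM in MEFs. Both sums were lowest in CiSCs, as the macrophage sum was. Yet 1 endothelial and 1 myoid marker were higher in CiSCs than in MEFs, and 2 endothelial markers higher than in MSCs. The order of the macrophage sum, lowest in CiSCs and highest in MEFs, was also the order of the means of Nr4a1, Nr4a3, Jun, Junb, Crem and Per1. Macrophages are known to express NR4A, AP-1 and EGR genes, and the part of these other cells in the values below was not tested.

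Promoters are shown first, because cAMP responsiveness is commonly read from them. RefSeq promoter windows (250 bases before to 50 after an annotated start, build GRCm38.p6) were found for 8 of the 10 genes, with 2 starts for Per1. Egr1 and Crem had no window, so no motif result below covers these genes. The searched motifs were the full CRE TGACGTCA, its core TGACG, the AP-1 site TGANTCA, the NR4A monomer site AAAGGTCA, the E-box CACGTG, the EGR site GCGGGGGCG and the CArG box of SRF, each on both strands. The core lies within the full CRE, so a full match is also a core match. The core was present in 7 of the 8 genes, against 20.8% of 32851 promoter windows. Those windows were not matched for base composition, and Per1 was counted once although it had 2. Nr4a1, Nr4a2 and Nr4a3 held 4 matches each, a number reached by 0.231% of the windows, and Fos held 2. The full CRE (1.79% of windows), the AP-1 site (7.81%), the NR4A site (1.51%) and the CArG box (1.63%) had no match in these windows, which says only that these letters were not in them. The EGR site (2.91% of windows) was matched in Nr4a1 and Fosb, and the E-box (7.15%) at 1 start of Per1. The following stretches end at the base before the start, 5′ to 3′ on the strand of the gene, with the core and its reverse complement CGTCA in capitals, for the 3 NR4A genes because they hold the most matches and for Fos because it differed from them in expression.
Nr4a1, chr15:101266596-101266845, plus strand: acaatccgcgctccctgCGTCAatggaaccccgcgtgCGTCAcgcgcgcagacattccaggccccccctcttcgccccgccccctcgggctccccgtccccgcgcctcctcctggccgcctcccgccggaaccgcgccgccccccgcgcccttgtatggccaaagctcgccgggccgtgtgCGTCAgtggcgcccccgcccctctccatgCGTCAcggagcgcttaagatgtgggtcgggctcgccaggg
Nr4a2, chr2:57124004-57124253, minus strand: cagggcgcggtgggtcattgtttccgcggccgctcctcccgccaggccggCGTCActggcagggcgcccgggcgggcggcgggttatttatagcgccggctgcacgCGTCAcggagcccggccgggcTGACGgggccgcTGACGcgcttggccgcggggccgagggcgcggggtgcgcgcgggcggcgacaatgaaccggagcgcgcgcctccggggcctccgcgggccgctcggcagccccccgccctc
Nr4a3, chr4:48045055-48045304, plus strand: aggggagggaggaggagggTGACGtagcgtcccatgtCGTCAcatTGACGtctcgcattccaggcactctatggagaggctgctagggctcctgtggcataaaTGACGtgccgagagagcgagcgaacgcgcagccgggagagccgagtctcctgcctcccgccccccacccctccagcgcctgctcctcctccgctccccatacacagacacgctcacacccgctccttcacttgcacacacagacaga
Fos, chr12:85473740-85473889, plus strand: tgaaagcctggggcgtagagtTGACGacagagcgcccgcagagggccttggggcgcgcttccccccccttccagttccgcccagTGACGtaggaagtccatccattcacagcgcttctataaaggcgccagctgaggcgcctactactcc

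**Figure D1:**
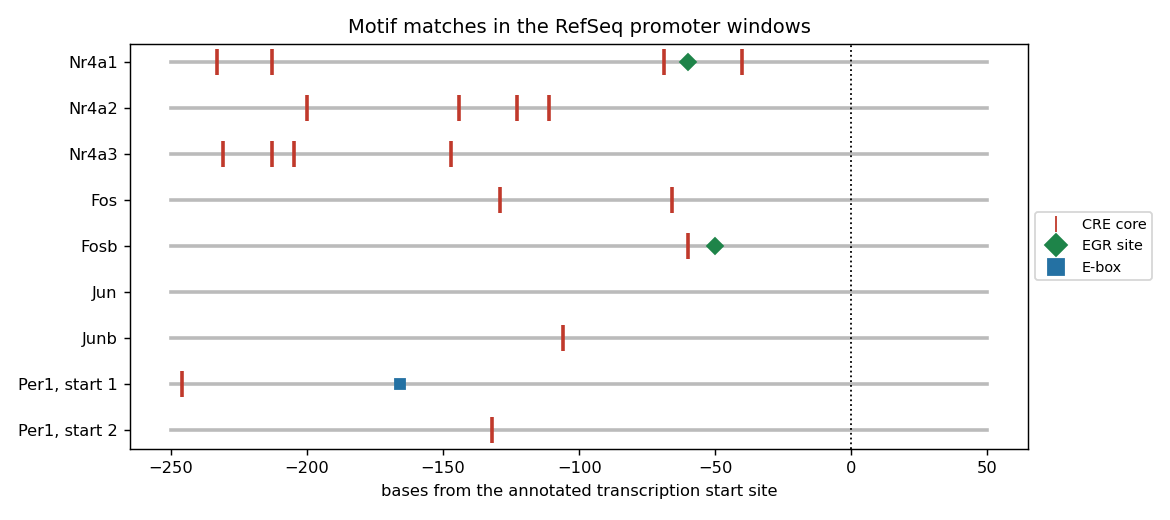
Positions of motif matches in 9 promoter windows of 8 genes, in bases from the annotated transcription start (dotted line). Red ticks mark the CRE core, green diamonds the EGR site and blue squares the E-box, each at the leftmost base of the match; the 3 NR4A genes carry 4 red ticks each, and Jun carries none.

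The 10 genes did not share a single pattern over the groups. Mean levels were highest in MEFs for 7 genes, in MSCs for Fos and Fosb, and in CiSCs for Egr1. Mean levels were lowest in CiSCs for 7 genes, in MSCs for Nr4a2, and in MEFs for Fos and Egr1. Replicate libraries lay within 1.47-fold of each other for every gene and group except Fosb in MSCs, where the 2 libraries were 1.94-fold apart.

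**Figure D2:**
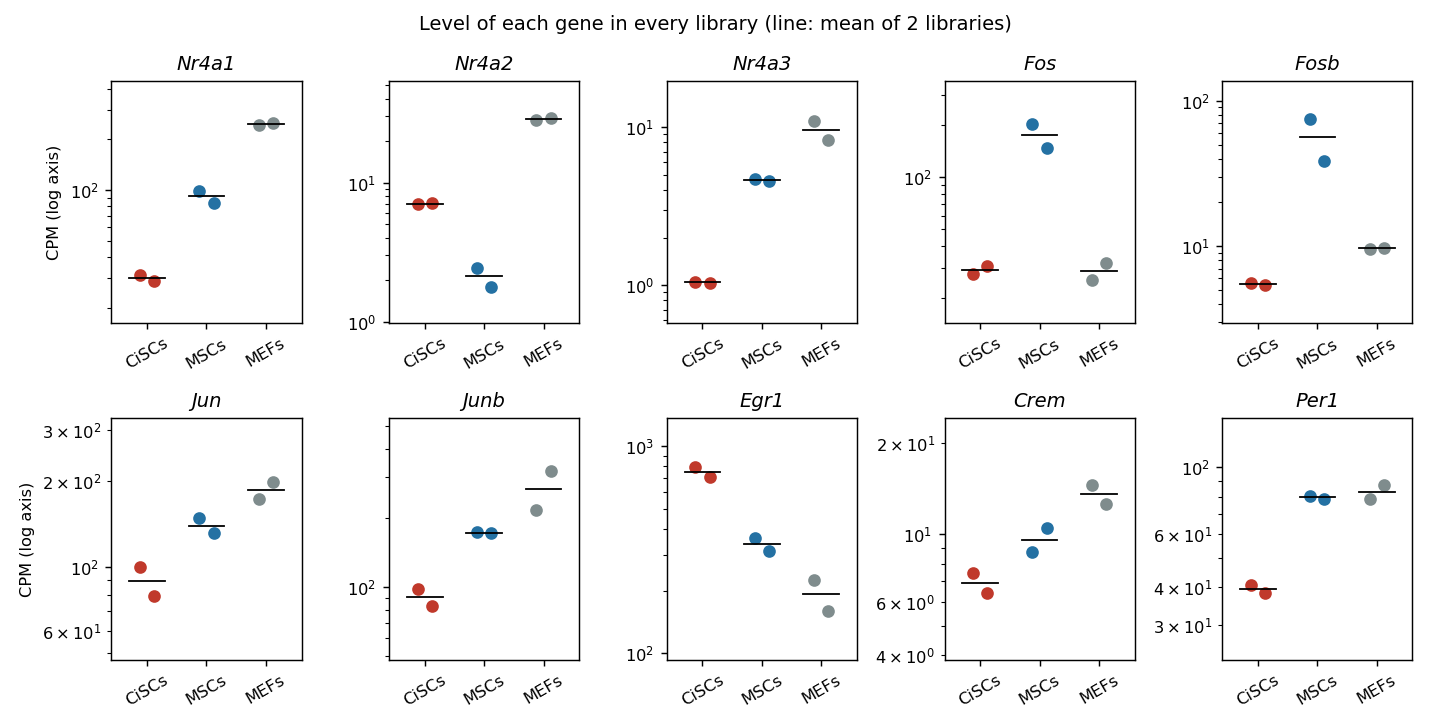
CPM of each gene in the 6 libraries, on a log axis that differs between panels, with points for libraries and a line for the mean of 2 libraries. Nr4a1, Nr4a3, Jun, Junb and Crem are lowest in CiSCs and highest in MEFs, Fos and Fosb stand highest in MSCs, and Egr1 is highest in CiSCs and lowest in MEFs.

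The NR4A genes encode orphan nuclear receptors whose activity is set mainly by how much of them is made. All 3 were highest in MEFs. Nr4a1 (Entrez Gene 15370) had 31.2 and 28.7 CPM in CiSCs, 99.1 and 84.0 CPM in MSCs, and 245 and 249 CPM in MEFs. The 3 groups did not overlap, and the order was the same as that of the macrophage marker sum. Nr4a1 was 8.22-fold lower in CiSCs than in MEFs (log2 fold change -3.04 ± 0.15, adjusted p = 2.62e-05, edgeR) and 2.69-fold lower in MSCs than in MEFs (-1.43 ± 0.14, adjusted p = 3.70e-04). It was 3.05-fold lower in CiSCs than in MSCs (-1.61 ± 0.14, adjusted p = 2.02e-04).

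Nr4a2 (Entrez Gene 18227), which is best known from dopaminergic neurons, had 7.01 and 7.11 CPM in CiSCs, 2.45 and 1.79 CPM in MSCs, and 28.0 and 29.1 CPM in MEFs. The groups were again apart, but here MSCs and not CiSCs stood lowest. Nr4a2 was 4.04-fold lower in CiSCs than in MEFs (log2 fold change -2.02 ± 0.18, adjusted p = 3.17e-04, edgeR) and 13.4-fold lower in MSCs than in MEFs (-3.75 ± 0.21, adjusted p = 4.47e-05). It was 3.32-fold higher in CiSCs than in MSCs (1.73 ± 0.20, adjusted p = 7.74e-04). Nr4a3 (Entrez Gene 18124), the family member with the lowest level in CiSCs and MEFs, had 1.05 and 1.03 CPM in CiSCs, from 44 reads in all, 4.68 and 4.56 CPM in MSCs, and 10.9 and 8.26 CPM in MEFs. Its groups followed the order of Nr4a1. Nr4a3 was 9.16-fold lower in CiSCs than in MEFs (-3.20 ± 0.25, adjusted p = 1.78e-04) and 4.43-fold lower in CiSCs than in MSCs (-2.15 ± 0.26, adjusted p = 8.01e-04). The 2.07-fold lower level in MSCs than in MEFs (-1.05 ± 0.22, adjusted p = 0.0104) did not pass without the first MSC library (adjusted p = 0.0748) or without the second (0.0797).

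On the scale of CPM per kilobase of exon, genes can be set beside each other roughly. The lengths were unions of all annotated exons, not those of the transcripts expressed, so close ratios between genes depend on that choice. Nr4a1 made up most of the NR4A level in every library. Its share was 82.4% and 81.0% in CiSCs, 95.3% and 95.2% in MSCs, and 88.9% and 89.2% in MEFs. Nr4a2 accounted for 16.0% and 17.3% of the family level in CiSCs, 2.03% and 1.76% in MSCs, and 8.81% and 9.03% in MEFs. The family composition thus separated the 3 groups without overlap, with the largest part of Nr4a2 in CiSCs and the smallest in MSCs. The summed NR4A level was 10.8 and 10.1 CPM per kilobase in CiSCs, 29.6 and 25.1 in MSCs, and 78.4 and 79.4 in MEFs.

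Fos and Fosb encode FOS proteins, which bind DNA only as partners of JUN proteins. Both were highest in MSCs. Fos (Entrez Gene 14281) had 27.8 and 30.5 CPM in CiSCs, 203 and 147 CPM in MSCs, and 25.4 and 31.9 CPM in MEFs. The CiSC values lay inside the range of the MEF values, and both MSC libraries stood well above all the others. Fos was 6.11-fold higher in MSCs than in MEFs (log2 fold change 2.61 ± 0.21, adjusted p = 1.92e-04, edgeR) and 6.00-fold lower in CiSCs than in MSCs (-2.59 ± 0.21, adjusted p = 1.62e-04). Between CiSCs and MEFs the difference did not pass (0.03 ± 0.20, adjusted p = 0.935), and its sign turned without the second CiSC library (-0.08) or without the first MEF library (-0.16). Fosb (Entrez Gene 14282) had 5.58 and 5.38 CPM in CiSCs, 74.8 and 38.6 CPM in MSCs, and 9.56 and 9.77 CPM in MEFs. The 2 MSC libraries differed more than any other replicate pair, yet both were above every other library. Fosb was 5.86-fold higher in MSCs than in MEFs (2.55 ± 0.31, adjusted p = 0.00109) and 10.3-fold lower in CiSCs than in MSCs (-3.37 ± 0.33, adjusted p = 3.39e-04). Both CiSC libraries were below both MEF libraries, but that difference did not pass (-0.82 ± 0.32, adjusted p = 0.0864). It did pass without the first MSC library (adjusted p = 0.0255), without the second (0.0191), in a fit of the CiSC and MEF libraries alone (0.0325) and by DESeq2 (0.0471).

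Jun and Junb encode JUN proteins, of which JUNB is a weaker activator that can hold JUN back. Both were highest in MEFs and lowest in CiSCs. Jun (Entrez Gene 16476) had 99.8 and 79.3 CPM in CiSCs, 148 and 131 CPM in MSCs, and 172 and 198 CPM in MEFs. The groups did not overlap, and the steps between them were small. In the GENCODE M21 annotation the antisense gene Junos overlaps Jun on the opposite strand, and the strand of the libraries was not stated. Jun was 2.06-fold lower in CiSCs than in MEFs (log2 fold change -1.05 ± 0.16, adjusted p = 0.00325, edgeR). It was 1.55-fold lower in CiSCs than in MSCs (-0.64 ± 0.16, adjusted p = 0.0207), which did not pass without the second CiSC library (adjusted p = 0.165), the first MSC library (0.148) or the second MSC library (0.0765). In MSCs against MEFs Jun did not pass (-0.41 ± 0.16, adjusted p = 0.0872), but did without the first MEF library (adjusted p = 0.0139).

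Junb (Entrez Gene 16477) had 98.6 and 82.5 CPM in CiSCs, 174 and 171 CPM in MSCs, and 217 and 319 CPM in MEFs. The groups did not overlap, and the 2 MEF libraries lay 1.47-fold apart. Junb was 2.96-fold lower in CiSCs than in MEFs (log2 fold change -1.57 ± 0.21, adjusted p = 0.00163, edgeR). Its 1.91-fold lower level in CiSCs than in MSCs (-0.93 ± 0.21, adjusted p = 0.0116) did not pass without the second CiSC library (adjusted p = 0.0952), the first MSC library (0.0740) or the second MSC library (0.0700). Its 1.55-fold lower level in MSCs than in MEFs (-0.64 ± 0.20, adjusted p = 0.0461) passed in the full fit and without the first MEF library. Without any 1 of the other 5 libraries the adjusted p was 0.0732 (first CiSC), 0.0724 (second CiSC), 0.195 (first MSC), 0.201 (second MSC) and 0.0549 (second MEF, log2 fold change -0.34). With only MSCs and MEFs in the fit it was 0.0714. An exon of Prdx2 overlaps Junb on the opposite strand in the same annotation. Prdx2 stood at 236 and 215 CPM in CiSCs, 297 and 336 CPM in MSCs, and 184 and 227 CPM in MEFs. Its order differed from that of Junb, and any share of its reads in Junb cannot be told apart here.

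The balance of the 4 AP-1 genes differed between the groups. Per kilobase of exon, the ratio of Fos to Jun was 0.377 and 0.522 in CiSCs, 1.87 and 1.52 in MSCs, and 0.200 and 0.219 in MEFs. MSCs were thus the 1 group in which Fos exceeded Jun. Fos made up 13.6% and 17.4% of the summed level of the 4 genes in CiSCs, 39.2% and 34.0% in MSCs, and 6.72% and 6.29% in MEFs. Junb made up 49.3% and 48.1% in CiSCs, 34.3% and 40.4% in MSCs, and 58.8% and 64.2% in MEFs, so it was the largest part in every library but the first MSC library, where Fos was larger. The summed level was 86.8 and 74.6 CPM per kilobase in CiSCs, 220 and 184 in MSCs, and 161 and 216 in MEFs. By that sum CiSCs stood below both other groups, and MSCs and MEFs overlapped.

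**Figure D3:**
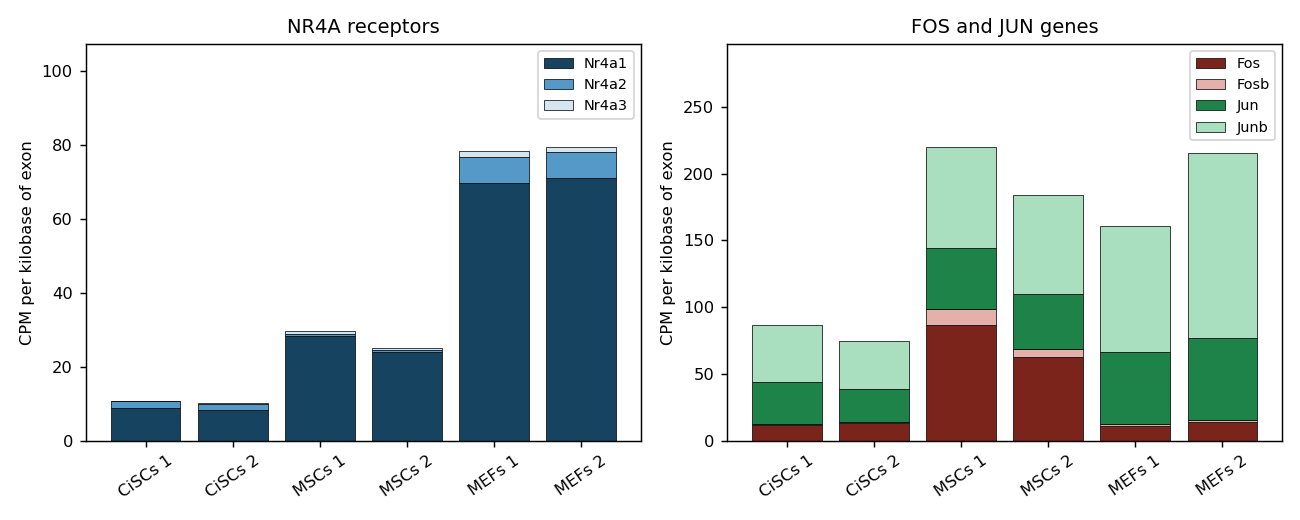
Summed CPM per kilobase of exon in each library, stacked by gene, for the NR4A receptors (left) and the FOS and JUN genes (right). The NR4A stack is highest in MEFs at 78.4 and 79.4, and the Fos segment is largest in the 2 MSC libraries, at 39.2% and 34.0% of the stack.

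Egr1 (Entrez Gene 13653), a zinc finger factor gene switched on by growth factors through MAP kinases and SRF, was the 1 gene of the 10 with its highest level in CiSCs. It had 792 and 709 CPM in CiSCs, 360 and 311 CPM in MSCs, and 225 and 161 CPM in MEFs. CiSCs stood above all the other libraries, and no groups overlapped. Egr1 was 3.89-fold higher in CiSCs than in MEFs (log2 fold change 1.96 ± 0.20, adjusted p = 5.20e-04, edgeR). It was 2.24-fold higher in CiSCs than in MSCs (1.16 ± 0.20, adjusted p = 0.00375), which did not pass without the second MSC library (1.06, adjusted p = 0.0507). Its 1.74-fold higher level in MSCs than in MEFs (0.80 ± 0.20, adjusted p = 0.0177) did not pass without the first MSC library (adjusted p = 0.131) or without the second (0.0684). Per kilobase of exon, the ratio of Egr1 to Fos was 15.0 and 12.2 in CiSCs, 0.930 and 1.11 in MSCs, and 4.65 and 2.64 in MEFs. Its relative Egr3, named after its values had been seen, had 20.4 and 18.5 CPM in CiSCs, 2.39 and 1.25 CPM in MSCs, and 6.52 and 4.0 CPM in MEFs. Egr3 was thus highest in CiSCs too, both against MEFs (1.89 ± 0.33, adjusted p = 0.00530) and against MSCs (3.41 ± 0.37, adjusted p = 5.40e-04). It was lower in MSCs than in MEFs (-1.53 ± 0.37, adjusted p = 0.0173), but not without the second MSC library (adjusted p = 0.103). Egr2 had 13.4 and 10.9 CPM in CiSCs, 21.4 and 21.9 CPM in MSCs, and 22.3 and 12.1 CPM in MEFs, and passed in none of the 3 comparisons (adjusted p from 0.0590 to 0.382). The first MEF library stood at the level of MSCs and the second at that of CiSCs. Egr2 passed without the second MEF library between CiSCs and MEFs (-0.87, adjusted p = 0.00248), without the first between MSCs and MEFs (0.81, 0.00384), and without the first or the second between CiSCs and MSCs (0.00104 and 9.09e-04). Between CiSCs and MSCs it also passed by DESeq2 (adjusted p = 0.0333), with the replicate number as a block (0.0423) and in a fit of those groups alone (0.00104).

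Crem (Entrez Gene 12916) encodes activators and repressors that bind CREs, among them the cAMP-induced repressor ICER, which is made from an internal promoter and cannot be told apart from the other forms in gene counts. It had 7.44 and 6.41 CPM in CiSCs, 8.72 and 10.5 CPM in MSCs, and 14.6 and 12.6 CPM in MEFs. The groups did not overlap, although MSC and CiSC values lay close. An exon of Gm6225 overlaps Crem on the opposite strand in the same annotation. Crem was 1.96-fold lower in CiSCs than in MEFs (log2 fold change -0.97 ± 0.19, adjusted p = 0.00851, edgeR), which did not pass without the second CiSC library (adjusted p = 0.0711) or against a fold of 1.5 (0.0580). It did not pass between MSCs and MEFs (-0.50 ± 0.19, adjusted p = 0.0774) or between CiSCs and MSCs (-0.47 ± 0.20, adjusted p = 0.0976). The MSC-MEF difference passed without the second MEF library (adjusted p = 0.0334), and the CiSC-MSC difference without the first MEF library (0.0404) or without the second (0.0408). CREM is known for its role in haploid male germ cells, and 5 germ cell markers summed to 0.239 and 0.140 CPM in CiSCs, 8.35 and 7.71 CPM in MSCs, and 0.658 and 0.312 CPM in MEFs.

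Per1 (Entrez Gene 18626), a clock repressor gene that is also induced by cAMP and glucocorticoids, had 40.6 and 38.2 CPM in CiSCs, 80.4 and 78.6 CPM in MSCs, and 78.3 and 87.6 CPM in MEFs. MSCs and MEFs overlapped, and both CiSC libraries stood below them. Per1 was 2.10-fold lower in CiSCs than in MEFs (log2 fold change -1.07 ± 0.13, adjusted p = 0.00106, edgeR) and 2.02-fold lower in CiSCs than in MSCs (-1.01 ± 0.13, adjusted p = 0.00113). Per1 did not pass between MSCs and MEFs (-0.06 ± 0.13, adjusted p = 0.723), and the sign turned without the second MEF library (0.02). Per3, another period gene, was higher in CiSCs, at 31.5 ± 3.41 CPM on average, than in MEFs, at 9.73 ± 1.31 CPM (1.70 ± 0.18, adjusted p = 6.38e-04), and than in MSCs, at 7.60 ± 0.834 CPM (2.05 ± 0.19, adjusted p = 2.47e-04). Per2 was higher in MSCs, at 20.3 CPM, than in MEFs, at 7.92 CPM (1.36 ± 0.16, adjusted p = 8.53e-04). Like Per1 it had its lowest mean in CiSCs, at 5.81 ± 0.147 CPM, below MSCs (-1.80 ± 0.16, adjusted p = 2.31e-04), while against MEFs it did not pass (-0.45 ± 0.16, adjusted p = 0.0679).

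Counted by comparison, 7 of the 10 genes were lower in CiSCs than in MEFs and 1, Egr1, was higher, while Fos and Fosb did not pass. Among all tested genes 21.3% were lower in CiSCs and 19.6% higher. The median log2 fold change was -1.06 for the 10 genes and -0.0022 for all tested genes. In the same comparison all 12 macrophage markers were lower in CiSCs. Over all genes the number that passed, 6250, was 3470 without the first CiSC library, 3395 without the second and 9487 without the first MEF library, while the count of lower genes among the 10 stayed between 6 and 8 when any 1 library was left out.

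Between MSCs and MEFs, 3 genes (Fos, Fosb and Egr1) were higher in MSCs and 4 (the NR4A genes and Junb) were lower, while Jun, Crem and Per1 did not pass. Of all tested genes, 22.5% were higher in MSCs and 20.0% lower, so the split of the 10 genes lay near an even one, as did that of all genes. The median log2 fold change was -0.46, against 0.01 for all tested genes. In MSCs the lower genes numbered 2, and the higher genes 2, when either MSC library was left out. Over all genes 6497 passed, but 3551 without the first MSC library and 3516 without the second. All 12 macrophage markers were lower and all 4 tested Leydig cell markers higher in MSCs. This comparison shares its MEF libraries with the one of CiSCs and MEFs. Side by side, the log2 fold changes of CiSCs and of MSCs against MEFs were -3.04 and -1.43 for Nr4a1, -2.02 and -3.75 for Nr4a2, -3.20 and -1.05 for Nr4a3, and 1.96 and 0.80 for Egr1.

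Between CiSCs and MSCs, 7 genes were lower in CiSCs, 2 (Egr1 and Nr4a2) were higher, and Crem did not pass. The shares over all tested genes were 25.1% lower and 17.7% higher in CiSCs. The median log2 fold change was -0.97 for the 10 genes and -0.03 for all tested genes. The higher genes numbered 1 without the second MSC library. The lower genes numbered 5 without the second CiSC library, the first MSC library or the second MSC library. All 12 macrophage markers were lower in CiSCs here as well. Over all genes, 6534 passed in the full fit, 4037 and 4205 without the first or second CiSC library, and 4017 and 3910 without the first or second MSC library.

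**Figure D4:**
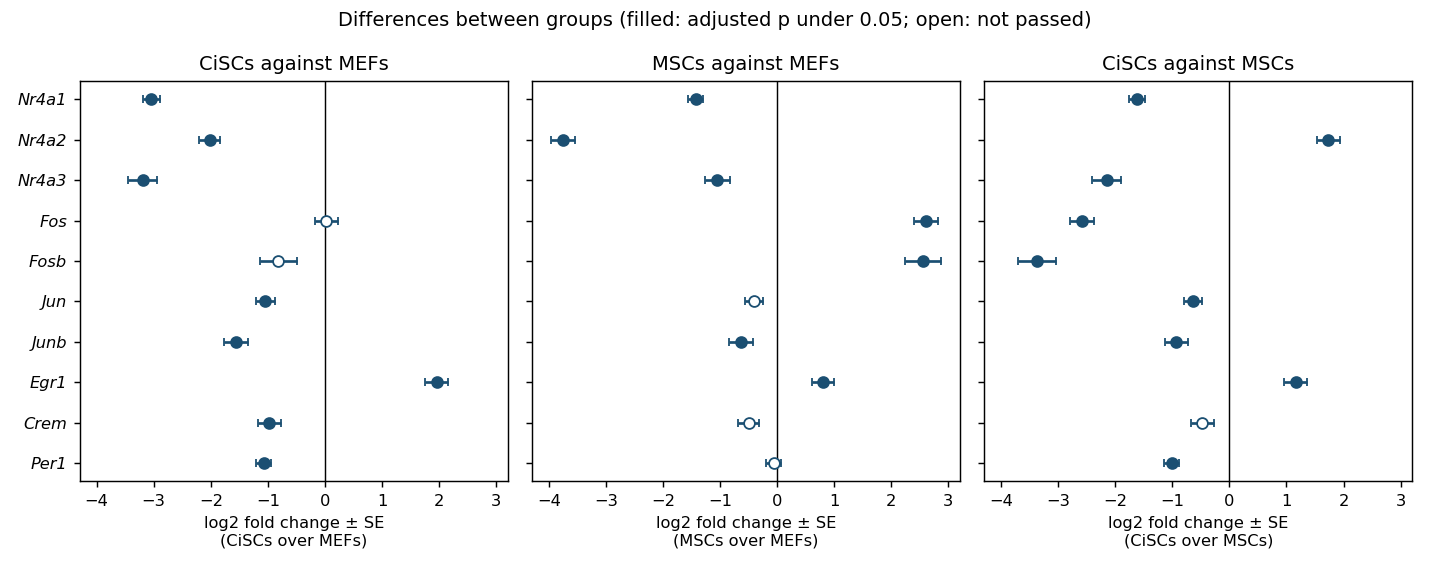
Log2 fold change ± standard error of the 10 genes in the 3 comparisons, from the fit to all 6 libraries, with filled points for an adjusted p under 0.05. In CiSCs against MEFs 7 filled points lie left of 0 and Egr1 lies right of it, and in MSCs against MEFs Fos, Fosb and Egr1 lie right of 0.

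A further 7 lists of genes of these pathways place the 10 genes among their neighbours. Their counts in MSCs against MEFs are to be read beside 22.5% higher and 20.0% lower of all tested genes. Those in CiSCs against MSCs are to be read beside 17.7% higher and 25.1% lower. Of 25 tested genes among 26 other immediate early genes, 14 were lower and 5 higher in CiSCs than in MEFs (median log2 fold change -0.93, against -0.0022 over all genes), while of all tested genes 21.3% were lower and 19.6% higher. The higher count, 5 of 25, was near the share of all genes. Leaving out 1 library gave 11 to 17 lower and 2 to 5 higher, the fewest higher without the first CiSC library. Atf3, a stress-induced repressor gene, averaged 3.71 ± 0.820 CPM in CiSCs and 70.4 ± 22.1 CPM in MEFs (-4.24 ± 0.32, adjusted p = 1.44e-04, edgeR), and Ccn2, a matricellular growth factor gene driven by SRF and YAP, averaged 368 ± 18.5 CPM in CiSCs and 1415 ± 72.6 CPM in MEFs (-1.94 ± 0.14, adjusted p = 1.13e-04). Klf2, a Krüppel-like factor gene, was among the higher ones, at 66.3 ± 12.1 CPM in CiSCs and 17.1 ± 2.14 CPM in MEFs (1.96 ± 0.18, adjusted p = 3.42e-04). In MSCs against MEFs the list was even, with 9 higher and 9 lower in MSCs (median 0.21). Those counts were 4 higher without the first MSC library and 5 lower without the second. Ier3, a survival gene, averaged 120 ± 7.34 CPM in MSCs and 30.8 ± 6.07 CPM in MEFs (1.96 ± 0.17, adjusted p = 2.66e-04), and Plk2, a kinase gene, 44.0 ± 5.84 CPM in MSCs and 267 ± 70.3 CPM in MEFs (-2.60 ± 0.22, adjusted p = 2.36e-04). Between CiSCs and MSCs, 12 genes were lower in CiSCs and 5 higher (median -0.82). That higher count was near the 17.7% of all tested genes. Zfp36, which encodes a factor that destabilises immediate early and cytokine mRNAs, averaged 32.4 ± 3.13 CPM in CiSCs and 132 ± 6.92 CPM in MSCs (-2.03 ± 0.14, adjusted p = 8.03e-05).

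Of the 14 other AP-1 family genes 13 were tested, and 7 were lower and 1 higher in CiSCs than in MEFs (median log2 fold change -1.04), against 21.3% lower and 19.6% higher of all tested genes. The higher count was 0 without the first CiSC library and 2 without the first MEF library. Fosl1, a FOS-related gene of growing cells, averaged 6.41 ± 1.99 CPM in CiSCs and 29.6 ± 5.08 CPM in MEFs (-2.21 ± 0.25, adjusted p = 8.57e-04, edgeR). Maf, a large MAF factor gene, was among the lower ones, at 3.23 ± 0.390 CPM in CiSCs and 62.8 ± 11.8 CPM in MEFs (-4.28 ± 0.20, adjusted p = 2.60e-05). In MSCs 5 were lower than in MEFs and 1 higher (median -0.04), with 1 lower without the first MSC library and 3 higher without the first MEF library. The higher one, the FOS-related gene Fosl2, averaged 431 ± 39.7 CPM in MSCs and 189 ± 34.0 CPM in MEFs (1.19 ± 0.16, adjusted p = 0.00182), so it stood with Fos and Fosb. Fosl2 was 91.9 ± 1.77 CPM in CiSCs, lower than in MSCs (-2.23 ± 0.17, adjusted p = 1.23e-04). In all, 6 genes of the list were lower and 1 higher in CiSCs than in MSCs (median -1.01), with 0 higher without the first CiSC library and 2 without the first MEF library.

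Of 16 genes that cAMP can induce, 4 were higher and 7 lower in CiSCs than in MEFs (median log2 fold change 0.12), against 19.6% higher and 21.3% lower of all tested genes. They moved both ways within 1 enzyme class, the phosphodiesterases that break down cyclic nucleotides. Pde7b was higher in CiSCs, at 83.7 ± 3.09 CPM against 16.9 ± 0.0733 CPM in MEFs (2.30 ± 0.13, adjusted p = 4.40e-05, edgeR). Pde3b averaged 1.04 ± 0.186 CPM in CiSCs and 19.4 ± 2.38 CPM in MEFs (-4.21 ± 0.24, adjusted p = 4.40e-05), and Pde4d 9.60 ± 2.14 CPM in CiSCs and 73.9 ± 9.91 CPM in MEFs (-2.94 ± 0.21, adjusted p = 1.17e-04). In MSCs 5 were higher than in MEFs and 6 lower (median -0.28), with 3 higher without the first CiSC library and 3 lower without the first MSC library. Inha, the inhibin alpha gene and a known cAMP target in Sertoli cells, averaged 206 ± 62.0 CPM in MSCs and 6.19 ± 1.10 CPM in MEFs (5.06 ± 0.28, adjusted p = 4.32e-05), and 9.97 ± 0.539 CPM in CiSCs. Sik1, a kinase gene that feeds back on CREB coactivators, averaged 28.0 ± 1.13 CPM in MSCs and 12.8 ± 0.260 CPM in MEFs (1.13 ± 0.13, adjusted p = 8.30e-04). The clock output factor gene Nfil3 averaged 15.4 ± 0.855 CPM in CiSCs, 105 ± 5.17 CPM in MSCs and 58.6 ± 4.07 CPM in MEFs, and was lower in CiSCs than in MSCs (-2.76 ± 0.14, adjusted p = 2.81e-05). Between CiSCs and MSCs the list had 4 higher and 6 lower in CiSCs (median -0.05). The shares of all tested genes were 17.7% higher and 25.1% lower.

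Components of the pathway were tested for 27 of 28 listed genes. In CiSCs 11 were higher than in MEFs and 3 lower (median log2 fold change 0.56), against 19.6% higher and 21.3% lower of all tested genes and their median of -0.0022, with 5 higher without the second CiSC library and 16 without the first MEF library. The adenylyl cyclase genes differed among themselves. Adcy7, which is prominent in blood cells, averaged 12.5 ± 1.36 CPM in CiSCs and 131 ± 14.4 CPM in MEFs (-3.39 ± 0.17, adjusted p = 3.23e-05, edgeR), and Adcy1 33.7 ± 5.01 CPM in CiSCs and 8.74 ± 3.02 CPM in MEFs (1.95 ± 0.26, adjusted p = 0.00176). The CREB coactivator gene Crtc1 averaged 37.3 ± 1.69 CPM in CiSCs and 16.1 ± 0.123 CPM in MEFs (1.21 ± 0.13, adjusted p = 7.03e-04). Against MEFs, MSCs had 8 higher and 3 lower (median 0.40), with 5 higher without the first MSC library and 15 without the first MEF library, and 1 lower without the second MSC library and 5 without the second MEF library. Akap12, a scaffold of protein kinase A, averaged 591 ± 65.2 CPM in MSCs and 234 ± 47.3 CPM in MEFs (1.34 ± 0.18, adjusted p = 0.00174), and Adcy5 7.39 ± 0.151 CPM in MSCs and 0.461 ± 0.0636 CPM in MEFs (3.98 ± 0.30, adjusted p = 1.35e-04). Between CiSCs and MSCs 6 were higher and 6 lower in CiSCs (median -0.02), with 2 higher without the first CiSC library and 9 without the first MEF library.

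Inhibitors that end MAP kinase signalling included 6 of 13 that were higher in CiSCs than in MEFs and 3 that were lower (median log2 fold change 0.65), against 19.6% higher and 21.3% lower of all tested genes, with 3 higher without the first CiSC library. Spry4, which blocks growth factor signalling to ERK, averaged 162 ± 18.5 CPM in CiSCs and 17.4 ± 8.37 CPM in MEFs (3.22 ± 0.33, adjusted p = 5.44e-04, edgeR), and its relative Spry1 349 ± 28.1 CPM in CiSCs and 93.2 ± 3.06 CPM in MEFs (1.91 ± 0.13, adjusted p = 1.05e-04). Dusp10, a phosphatase of stress kinases, averaged 3.99 ± 0.112 CPM in CiSCs and 29.4 ± 9.66 CPM in MEFs (-2.88 ± 0.28, adjusted p = 4.37e-04). Dusp1, itself an immediate early gene, averaged 352 ± 16.0 CPM in MSCs and 28.5 ± 17.4 CPM in MEFs (3.63 ± 0.42, adjusted p = 8.04e-04), the side on which Fos and Fosb stood. Its 12.4-fold higher level in MSCs was 21.3-fold without the first MEF library. Of these inhibitors 4 were higher and 2 lower in MSCs than in MEFs, and 5 higher and 3 lower in CiSCs than in MSCs. In CiSCs against MSCs, 3 were higher without the first MSC library and 5 lower without the first MEF library. In MSCs against MEFs, 2 were higher without the first CiSC library and 7 without the first MEF library, and 0 were lower without the first MSC library and 5 without the second MEF library.

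Among the MAP kinase and SRF inputs 2 of 16 were higher and 4 lower in CiSCs than in MEFs (median -0.03), against 19.6% higher and 21.3% lower of all tested genes. The higher count was 0 without the first CiSC library and 5 without the first MEF library, and the lower count was 2 without the first CiSC library and 7 without the second MEF library. Rps6ka1, a kinase that acts on Fos and CREB proteins, averaged 8.20 ± 0.548 CPM in CiSCs and 55.1 ± 15.2 CPM in MEFs (-2.75 ± 0.23, adjusted p = 2.12e-04, edgeR). As for the other lists, 22.5% of all tested genes were higher and 20.0% lower in MSCs than in MEFs. For CiSCs against MSCs those shares were 17.7% higher and 25.1% lower. Of these inputs 4 were higher and 3 lower in MSCs than in MEFs, and 3 higher and 6 lower in CiSCs than in MSCs, with 0 higher in MSCs than in MEFs without the first MSC library, and 9 higher and 5 lower without the first MEF library. In CiSCs against MSCs, 1 was higher without the first MSC library and 5 without the first MEF library, and 3 were lower without the first CiSC library. Of 20 clock genes other than Per1, 6 were higher and 2 lower in CiSCs than in MEFs (median 0.01, or 0.06 with genes at 0 reads set to their bound), against 19.6% and 21.3% of all tested genes, with 3 higher and 1 lower without the first CiSC library. In MSCs 6 of the clock genes were higher and 4 lower than in MEFs, or 3 higher without the first MSC library, 10 higher without the first MEF library and 1 lower without the first CiSC library, and 7 were higher and 6 lower in CiSCs than in MSCs, or 4 higher and 3 lower without the first CiSC library. Bhlhe41, a clock repressor gene, averaged 20.5 ± 0.284 CPM in CiSCs and 93.9 ± 16.2 CPM in MEFs (-2.19 ± 0.16, adjusted p = 1.34e-04).

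**Figure D5:**
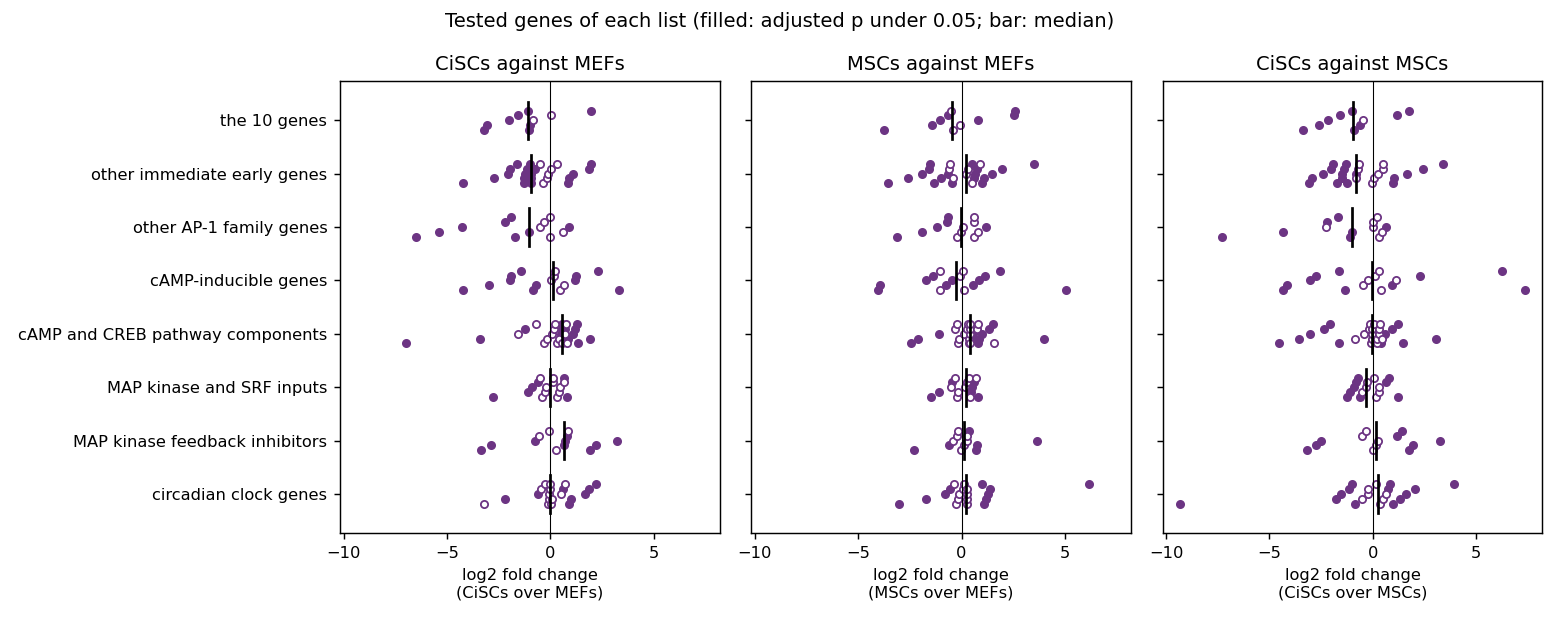
Log2 fold changes of the tested genes of each list in the 3 comparisons, 1 point per gene, filled where the adjusted p was under 0.05, with a bar at the list's median; points for genes with 0 reads in a group depend on the model's prior. In CiSCs against MEFs the medians of the 10 genes (-1.06), the other immediate early genes (-0.93) and the other AP-1 genes (-1.04) lie left of 0. Those of the cAMP and CREB pathway components (0.56) and the MAP kinase feedback inhibitors (0.65) lie right of it. The remaining medians lie from -0.03 to 0.12.

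For each gene, the genes with the most similar profile were taken by the smallest Euclidean distance between log2 CPM values centred on their mean over the 6 libraries, among genes with a mean of at least 10 CPM. These are descriptions over 6 libraries, in which 3 group means make up most of each profile. Nr4a1 lay nearest to Jag1 (distance 0.374) and Mfap4 (0.385), and Nr4a3 to Tbc1d9 (0.408) and again Jag1 (0.449). The nearest to Nr4a2 were Gsto1 (0.556) and Tenm4 (0.557). Fos lay nearest to Tacc1 (0.245) and Xdh (0.401), and Fosb to Fhdc1 (0.613) and Srpx2 (0.686). Jun was followed by Rabgef1 (0.176) and Dusp3 (0.192), and Junb by Vamp8 (0.123) and S100a10 (0.127). Egr1 had Rgl1 (0.195) and Prkca (0.255), Crem had Hmga1 (0.107) and Ripk3 (0.197), and Per1 had Myo18a (0.136) and Bgn (0.142). Among the 10 genes themselves the closest pairs were Jun and Per1 (0.460), Jun and Crem (0.466), Jun and Junb (0.568), and Nr4a1 and Nr4a3 (0.599), while Fos and Fosb were 0.998 apart.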

How the data were processed

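Per the labels' protocols, the BGISEQ-500 platform was used to sequence RNA of 6 libraries (2 CiSCs, 2 MSCs, 2 MEFs), which were grouped by title. The values the authors deposited are expected counts for each Entrez Gene ID, that is, read estimates which are not always whole numbers. HISAT and the mouse build mm9 are named in the submitters' processing notes; the counting program, annotation, filters and strand are not given in the sources used here. In each library 42.0% to 43.8% of the values were not whole (tolerance 1e-09). Symbols came from a RefSeq table of GRCm38, which matched 18891 of 20007 IDs, and promoter sequences from RefSeq on GRCm38.p6, not the build of the alignment.

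After rounding, edgeR 4.0.16 (R 4.3.3) was used (filterByExpr, TMM scaling, a quasi-likelihood fit of 1 mean per group to all 6 libraries, 3 residual degrees of freedom, two-sided F tests, Benjamini-Hochberg over 15272 genes). A standard error is the log2 fold change divided by the root of F. Log2 CPM used a prior count of 2. Genes at 0 reads were bounded at 3 reads over a group, for counting error only, since no molecular identifiers are named. Exon lengths were unions over GENCODE M21 transcripts. The procedure was tested on simulated data.

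The 10 genes and the lists were chosen with earlier results of these data known. All 10 genes are named, and from each list up to 4 passing genes with the smallest adjusted p per comparison could be named; Egr2 and Egr3 were added later. Alternatives were median-ratio size factors, DESeq2 1.42.0, other filters on low counts, counts not rounded, only the compared groups, the replicate number as a block, a stricter threshold (adjusted p of 0.01), a minimum fold of 1.5 within the test, and leaving out each library.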

Additional observations from a re-analysis of the deposited data

How the results depend on the processing

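Over 15 alternatives for each of 30 differences (10 genes in 3 comparisons), 407 of 450 values kept their direction and their side of the threshold, 32 no longer passed, 8 newly passed and 3 turned their sign, none of which had passed. The sign turned for Fos in CiSCs against MEFs (-0.077 without the second CiSC library and -0.157 without the first MEF library, range -0.157 to 0.199 when 1 library was left out) and for Per1 in MSCs against MEFs (0.018 without the second MEF library, range -0.172 to 0.018). Among the list genes, whose alternatives were chosen after the data had been seen, it turned for Egr2 in MSCs against MEFs (-0.040 without the second MEF library, range -0.040 to 0.808). The differences of Nr4a1 and Nr4a2 in all 3 comparisons, and of Fos and Fosb between MSCs and each other group, passed under all 15. So did those of Nr4a3, Jun, Junb, Egr1 and Per1 between CiSCs and MEFs, and of Nr4a3 and Per1 between CiSCs and MSCs. Junb between MSCs and MEFs also failed to pass with no filter on low counts (adjusted p = 0.0551) and with at least 5 CPM in 2 libraries (0.0536).

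Genes called over all tested genes numbered 3774 in CiSCs against MEFs, 4009 in MSCs against MEFs and 4324 in CiSCs against MSCs at an adjusted p under 0.01, and 3664, 3979 and 4282 in the same order for a minimum fold of 1.5. Of the 10 genes, 1 was higher in CiSCs than in MEFs under either setting. In that comparison 7 were lower at the stricter threshold and 6 for the minimum fold. Under either setting 2 of the 10 genes were higher and 2 lower in MSCs than in MEFs. Likewise 2 were higher and 5 lower in CiSCs than in MSCs under either. Leaving out 1 library gave 3395 to 9487, 3516 to 9745 and 3910 to 9369 genes in that order. For the 10 genes it gave 1 higher and 6 to 8 lower in CiSCs against MEFs, 2 to 3 higher and 2 to 5 lower in MSCs against MEFs, and 1 to 2 higher and 5 to 8 lower in CiSCs against MSCs. A library left alone in its group was assumed to vary like the others. The cause of these changes was not tested, and a fit without 1 library also held fewer samples.

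The labels number the libraries 1 and 2 in each group without saying that a number is shared. Deviations of same-numbered libraries correlated at -0.13 (CiSCs and MSCs), -0.21 (CiSCs and MEFs) and 0.14 (MSCs and MEFs). With the replicate number as a block, 5468, 5672 and 5814 genes were called in the order above, and of the calls on the 10 genes only Junb in MSCs against MEFs was lost (adjusted p = 0.0750). Depth limits mainly Nr4a3, with 44 reads in CiSCs, and Nr4a2, with 79 reads in MSCs.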
